A study of Mus musculus with 13 samples.

Results

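Intergenic open regions are stretches of accessible chromatin that lie outside the genes of an annotation and away from gene starts; here the annotation was the gene table deposited with the mRNA counts. From the unified list of open regions of the series, 6032 of 18310 regions (32.9%; 95% Wilson interval 32.3 to 33.6%) were taken: those more than 1000 bp from every transcription start site (TSS, the 5′ end of a gene in the count table) and overlapping no gene of that table. The rest of the list was 7623 regions within 1000 bp of a TSS (TSS-proximal) and 4655 regions inside genes but farther from a TSS (intragenic distal). Of the chosen regions, 134 lay within 500 bp beyond the distance limit, the closest at 1004 bp from a TSS, while 243 regions outside genes lay within 500 bp inside it, the closest at 999 bp, and were not taken.

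All libraries came from E14, an embryonic stem cell line of the mouse with a 129/Ola background, grown in serum with leukemia inhibitory factor (LIF), the cytokine that keeps such cells undifferentiated. The low-input method opened cells gently, let the transposase Tn5 cut and tag accessible DNA, and then caught messenger RNA from the same lysate, so that each preparation gave an ATAC library and an mRNA library. It was run on 10000 and 20000 cells in experiment 1 and on 5000, 10000 and 20000 cells in experiment 2, and for comparison Omni-ATAC, a widely used ATAC protocol, on 5000, 10000 and 50000 cells. The 8 ATAC libraries each came with a list of peaks, and the 5 mRNA libraries with counts for 24470 genes. No treatment, transgene or second line was part of the study. There was 1 library for each of the 3 Omni-ATAC groups and for the low-input groups from 5000 cells, and 2 libraries, 1 per experiment, for the others. Nothing in the labels says that libraries came from separate cultures, so p-values below measure only the spread between these libraries.

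Open chromatin far from genes is known to hold enhancers, which raise the transcription of genes at a distance, insulator sites bound by CTCF, and starts of transcripts that gene tables leave out. In embryonic stem cells many enhancers are bound by POU5F1, SOX2 and NANOG together, and dense groups of them flank genes that keep the cells pluripotent. ATAC shows that such a place was open, and not which factor was bound there or which gene it served. The nearest gene named for a region below need not be the gene it acts on.

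The sequence of the regions themselves was not used here, but 238 of the 6032 regions (3.95%) overlapped at least 1 base of a RefSeq promoter window (250 bases before to 50 bases after a gene start, GRCm38.p6, the same build as mm10). They overlapped 268 windows of 244 genes, and 200 of these windows belonged to RefSeq genes that are not in the count table, mostly non-coding transcripts. Regions over such a window were found in all 8 peak lists in 80 cases (33.6%), against 18.8% of the other intergenic regions, and their median width was 194.5 bp against 142 bp. The windows had a median GC content of 55.8%, against 52.7% over all 32851 windows and 62.7% over the 6630 windows under TSS-proximal regions.

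Motifs were searched as plain letters on both strands, in the whole window. The core of the CTCF motif (CNAGGGGGC, with N for any base) was in 19 of the 268 windows (7.09%), in 2.75% of all windows and in 5.93% of windows under TSS-proximal regions. The octamer ATTTGCAT, which POU factors bind, was in 9 windows (3.36%), against 1.74% and 1.43%. The core of the composite site for POU5F1 and SOX2 (TGCATNACA), which overlaps the octamer in 5 bases, was in 4 windows (1.49%), against 0.801% and 0.241%. The KLF motif GGGNGTGG was in 17.5% of the windows, against 17.6% and 25.2%, and the AP-1 motif TGANTCA was in 5.22%, against 7.81% and 3.38%. The STAT3 motif TTCCNGGAA was in 5 windows (1.87%), against 1.15% and 1.13%, and the ESRRB motif TCAAGGTCA was in 0, against 0.423% and 0.166%. These counts are small and a match is letters only.

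The windows below are 1 for each of the 3 genes with a composite core (C330002G04Rik has a second window, shifted by 1 base, that is not printed), followed by the window under the widest intergenic region with a CTCF core and the window under the widest intergenic region with any window. Each runs 5′ to 3′ in the direction of the gene, with matches to the motifs above in capitals. Gm39827, on the minus strand at chr11:58302564-58302863, shared 164 bases with a region of 576 bp found in all 8 lists, and its capitals, inside that region, are a composite core. C330002G04Rik, on the minus strand at chr19:23075856-23076155, held a whole region of 149 bp found in 7 lists. Its capitals are a composite core on the opposite strand, a STAT3 motif and an AP-1 motif, the last outside the region. Gm34201, on the minus strand at chr15:84622114-84622413, shared 184 bases with a region of 213 bp found in 5 lists, and its capitals are an octamer and a composite core that overlap, both on the opposite strand. Gm26901, on the minus strand at chr1:7398047-7398346, lay wholly inside a region of 731 bp found in all 8 lists, and its capitals are a CTCF core on the opposite strand. Gm51701, on the plus strand at chr9:123924898-123925197, lay wholly inside a region of 982 bp found in all 8 lists and holds none of the 7 motifs.
Gm39827: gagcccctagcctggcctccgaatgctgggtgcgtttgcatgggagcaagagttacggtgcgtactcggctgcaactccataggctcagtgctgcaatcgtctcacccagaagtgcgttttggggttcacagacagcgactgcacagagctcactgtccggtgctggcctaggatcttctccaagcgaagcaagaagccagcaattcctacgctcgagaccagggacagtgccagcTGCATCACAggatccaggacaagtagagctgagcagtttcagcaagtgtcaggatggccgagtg
C330002G04Rik: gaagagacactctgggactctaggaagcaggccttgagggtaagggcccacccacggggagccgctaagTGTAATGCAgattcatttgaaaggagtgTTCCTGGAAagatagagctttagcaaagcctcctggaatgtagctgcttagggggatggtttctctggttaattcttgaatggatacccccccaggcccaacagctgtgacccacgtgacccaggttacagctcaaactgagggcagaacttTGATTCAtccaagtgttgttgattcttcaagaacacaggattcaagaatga
Gm34201: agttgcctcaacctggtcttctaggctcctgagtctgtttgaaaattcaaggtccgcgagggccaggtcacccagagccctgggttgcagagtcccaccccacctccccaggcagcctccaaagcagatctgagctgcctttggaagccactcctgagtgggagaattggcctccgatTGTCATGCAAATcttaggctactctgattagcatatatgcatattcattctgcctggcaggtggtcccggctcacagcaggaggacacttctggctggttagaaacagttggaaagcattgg
Gm26901: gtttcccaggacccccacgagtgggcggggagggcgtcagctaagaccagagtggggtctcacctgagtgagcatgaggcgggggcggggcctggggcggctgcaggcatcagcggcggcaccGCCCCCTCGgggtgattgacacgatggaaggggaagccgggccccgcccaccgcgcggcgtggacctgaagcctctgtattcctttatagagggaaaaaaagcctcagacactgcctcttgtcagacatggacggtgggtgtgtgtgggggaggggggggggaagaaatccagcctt
Gm51701: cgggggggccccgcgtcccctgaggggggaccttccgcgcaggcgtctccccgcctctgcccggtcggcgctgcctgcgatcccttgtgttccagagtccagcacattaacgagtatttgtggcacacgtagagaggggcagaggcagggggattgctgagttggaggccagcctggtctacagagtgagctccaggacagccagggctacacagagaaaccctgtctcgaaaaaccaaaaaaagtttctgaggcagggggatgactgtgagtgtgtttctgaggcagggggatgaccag

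The 8 peak lists recovered the intergenic regions very unevenly. A region counted as recovered when a peak of the list overlapped it by at least 1 bp. Omni-ATAC recovered 30.4% of the 6032 regions from 5000 cells, 80.5% from 10000 cells and 99.5% from 50000 cells. The low-input protocol recovered 62.2% from 5000 cells. From 10000 cells it recovered 64.5% in experiment 1 and 88.3% in experiment 2, and from 20000 cells 83.2% and 99.3%. The 95% Wilson intervals were narrow, 29.3 to 31.6% for Omni-ATAC and 60.9 to 63.4% for the low-input list from 5000 cells, and cover counting error only. The lists rise with cell number in each series, and within the low-input protocol the library from 10000 cells of experiment 2 stood above the one from 20000 cells of experiment 1.

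All 7 pairs of lists from the same protocol and experiment were ordered by cell number. That gave p = 0.0278 in an exact, two-sided permutation test, the smallest p this design allows, and 0.0556 after Benjamini-Hochberg adjustment over the 4 tests on recovery. With every list limited to as many of its widest peaks as the shortest list holds, 57.1% of pairs were in that order (p = 1, exact permutation test). The lists held 9097 to 95457 peaks, so list length moved with cell number. The sources used here do not say how the authors built the unified list. Every one of its regions overlapped a peak in at least 3 of the 8 lists, so a recovery near 100% in the longest lists is in part a property of that list.

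Intergenic regions were recovered less than TSS-proximal regions in 8 of 8 lists, as the plot of recovery by list shows. The difference was −7.94 points on average (SD 6.03, n = 8 lists), with p = 0.0078 in an exact, two-sided sign-flip permutation test and 0.0312 after adjustment over the 4 tests. It was −16.0 points in Omni-ATAC from 5000 cells, −14.4 in the low-input list from 5000 cells and −0.517 in Omni-ATAC from 50000 cells; the low-input list from 20000 cells of experiment 2 had the smallest gap, −0.451. Intergenic regions were narrower, with a median of 144 bp against 199 bp, and among regions of at least 300 bp the mean difference was −3.15 points. With every list limited to its widest peaks it was −17.8 points. Against intragenic distal regions, whose median width was 135 bp, the difference was 1.27 points (SD 1.51), higher in 6 lists and lower in 2. The exact p was 0.0781 (adjusted 0.104, permutation test). The unadjusted p fell under 0.05 when lists were limited to their widest peaks (2.80 points, p = 0.0156, exact permutation test). It also did so without the Omni-ATAC list from 50000 cells (1.49 points, p = 0.0469, exact permutation test). Leaving out the 2 clusters with the most regions, described below, gave 1.19 points (p = 0.0391, exact permutation test). Among regions of at least 300 bp the difference was 0.204 points (p = 0.625), and without intergenic regions over a RefSeq gene it was 0.822 points (p = 0.117), both by the same exact permutation test.

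**Figure D1:**
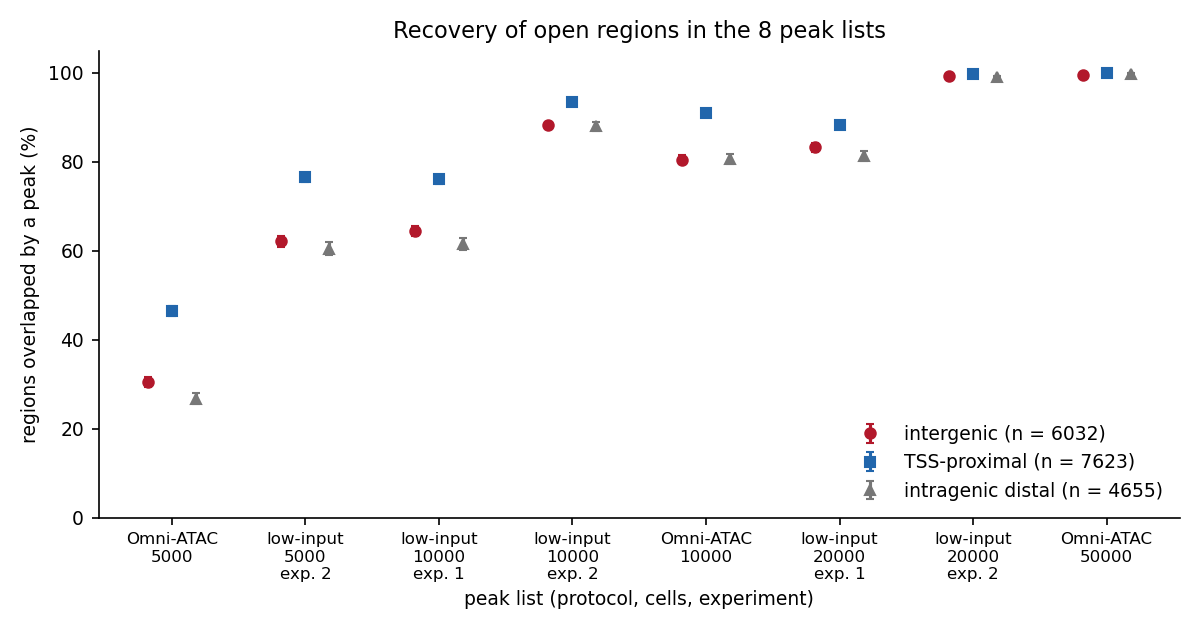
Share of regions overlapped by a peak (y axis, %) in each of the 8 peak lists (x axis), for intergenic, TSS-proximal and intragenic distal regions; bars are 95% Wilson intervals for counting error, and most are smaller than the symbols. Intergenic regions lie below TSS-proximal regions in all 8 lists, with a difference of −16.0 points in Omni-ATAC from 5000 cells and −0.517 points in Omni-ATAC from 50000 cells.

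A core of 1170 intergenic regions (19.4%) was found in all 8 lists, against 2913 TSS-proximal regions (38.2%) and 819 intragenic distal regions (17.6%). At the other end 201 intergenic regions (3.33%) were found in only 3 lists. All 5 low-input lists held 2598 regions (43.1%; median width 211 bp). Of the 2 lists from 5000 cells, the low-input list held 18637 peaks and the Omni-ATAC list 9097. Of the intergenic regions, 2295 (38.0%) were in the low-input list and not in the Omni-ATAC list, 379 (6.28%) the reverse, and 1903 (31.5%) in neither. The gap was not particular to them: these lists held 76.5% and 46.4% of TSS-proximal regions, and 60.5% and 26.7% of intragenic distal regions. Between experiments, 539 regions (8.94%) were in both lists of experiment 2 and in neither list of experiment 1 from 10000 and 20000 cells, against 7 (0.116%) the other way round. Over all 18310 regions of the unified list the shares were 7.72% and 0.071%, with 5.46% of TSS-proximal and 9.84% of intragenic distal regions in experiment 2 alone. Only 21 intergenic regions were in no Omni-ATAC list and 7 in no low-input list, and these counts were not made for the other classes. Each of these patterns compares lists without replicates at 5000 cells or from 2 days, so no test was made.

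Recovery followed the width of a region. Of the 1585 intergenic regions of 50 to 99 bp, the low-input list from 5000 cells held 42.5% and the Omni-ATAC list from 5000 cells 18.8%. Of the 872 regions of at least 300 bp these lists held 91.9% and 57.3%. The peaks that met the regions were also narrow in the short lists: the median width of the widest peak at a recovered region was 9 bp in Omni-ATAC from 5000 cells, 36 bp in the low-input list from 5000 cells and 298 bp in Omni-ATAC from 50000 cells. In the first of these lists 54.4% of the recovered regions were met by a peak of 9 bp and by none wider. Distance from a gene mattered little by comparison. In Omni-ATAC from 10000 cells recovery ran from 77.2% for regions with their midpoint under 5 kb from a TSS to 86.6% for those beyond 500 kb.

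The regions lay at a median of 27.3 kb from the nearest TSS (quartiles 10.8 and 70.8 kb, measured from the midpoint of a region), and the farthest at 2526 kb. In 3920 cases (65.0%) the region was upstream of its nearest gene; regions inside genes had been left out, which removes most places downstream of a start. Most of the regions, 4486 (74.4%), overlapped no RefSeq gene of any kind either. Of the rest, 859 were counted under a RefSeq long non-coding RNA gene and 515 under a RefSeq protein-coding gene, although they lay outside every gene interval of the count table. Each region was counted once, in the order small RNA, long non-coding RNA and protein-coding gene. A region over genes of several kinds is thus under the first of these only.

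Some regions lay over genes of short structural RNAs. tRNA genes, which encode the adaptors of protein synthesis, were overlapped by 72 intergenic regions, 22 of them (30.6%) in all 8 lists. The median width of these 72 regions was 198 bp, against 143 bp for the regions that overlapped no RefSeq gene. Omni-ATAC from 5000 cells held 52.8% of the first and 29.5% of the second. In the low-input list from 5000 cells the shares were 84.7% and 61.7%. Omni-ATAC from 10000 cells went the other way, with 75% against 80.1%, and the low-input list from 20000 cells of experiment 1 gave 84.7% and 83.1%. The regions covered 80 of the 408 nuclear tRNA genes in the RefSeq table, out of 106 that any region of the unified list covered. Chromosome 13, which carries a large tRNA gene cluster, held 26 of the 72 regions, and 38 of them had another intergenic region in their cluster. Small nuclear RNA genes, whose products form the spliceosome, were overlapped by 16 regions with a median width of 450 bp, and 10 of these were in all 8 lists. tRNA and small nuclear RNA genes have near-identical copies, and how reads matching several copies were treated is not stated.

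The 5 widest intergenic regions that all 8 lists held were chr17:39842992-39848720 (5729 bp, over the ribosomal RNA pseudogene Rn18s-rs5 and the non-coding AY036118), chr2:98666238-98667330 (1093 bp, over no RefSeq gene), chr1:24612473-24613529 (1057 bp, over the pseudogene Gm10222), chr9:123924660-123925641 (982 bp, over the non-coding Gm51701 shown above) and chr6:39445620-39446588 (969 bp, over no RefSeq gene). The first is more than 5 times as wide as the next. Whether their signal is from 1 place or from many copies was not tested.

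Regions within 12.5 kb of each other formed 712 clusters, which held 1642 of the 6032 regions (27.2%). Clusters were small: 566 held 2 regions, 112 held 3, 24 held 4, 7 held 5 and 3 held 6 or more. With a distance of 5 kb there were 433 clusters and with 25 kb 941. Clustered regions were recovered 2.04 points more than single regions (SD 3.56, n = 8 lists; higher in 6, lower in 2; exact p = 0.148, permutation test). The 2 lists where they were lower were Omni-ATAC from 10000 cells (−3.96 points) and from 50000 cells (−1.03). The sign changed when only peaks of at least 50 bp were counted (−0.088 points), and the p fell to 0.0469 without the Omni-ATAC list from 10000 cells (2.90 points; exact permutation test).

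The cluster with the most regions lay at the very start of chromosome 9 as assembled, at chr9:3000002-3036111. There 30 regions covered 17.5% of 36.1 kb next to the microRNA gene Mir101c. All 30 were in each of the 5 low-input lists. The Omni-ATAC lists from 5000, 10000 and 50000 cells held 23, 13 and 20 of them. So the count did not follow cell number in Omni-ATAC, and the 50000-cell list, which held 99.5% of all intergenic regions, lacked 10 of these 30. In all, that list lacked 32 intergenic regions. The second cluster, chr14:19415713-19419407, had 7 regions that covered 50.0% of 3.69 kb, and all 7 were in all 8 lists. Its nearest gene, Gm5458, was 185 kb away and had 1 to 7 counts per mRNA library. Whether the sequence there has copies elsewhere in the genome was not tested.

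The third cluster lay upstream of the miR-290 genes. These encode a set of microRNAs that are abundant in mouse embryonic stem cells and are known for promoting their rapid cell cycle; the mature forms come in families that share a seed, the stretch that pairs with target messages. Their seeds are shown because they define those families. RefSeq (GRCm38.p6) as used here held only the 5p form of miR-292a and no 3p form, so the set below may be incomplete. The 3p forms it held on the plus strand of chromosome 7 are printed 5′ to 3′ with bases 2 to 8, the seed, in capitals.
miR-291a-3p: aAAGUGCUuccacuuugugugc
miR-294-3p: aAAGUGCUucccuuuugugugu
miR-295-3p: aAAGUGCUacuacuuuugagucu
miR-290a-3p: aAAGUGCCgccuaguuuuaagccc
miR-291b-3p: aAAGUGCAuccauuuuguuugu
miR-293-3p: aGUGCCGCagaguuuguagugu
The first 3 share the seed AAGUGCU, and miR-290a-3p and miR-291b-3p differ from it in the last base of the seed, while miR-293-3p has a different one, GUGCCGC. The cluster ran from chr7:3193203 to chr7:3212576 and held 6 regions, whose midpoints lay 6.29, 12.0, 17.1, 19.6, 24.5 and 25.3 kb upstream of the start of Mir290a, as the map of the cluster shows. The 3 nearest, of 489, 320 and 441 bp, were in all 8 lists. The next 2, of 100 and 103 bp, were in 6 and 4 lists, and the farthest, of 224 bp, was in 7. For that one the nearest gene is AU018091, which had 54.6 to 80.6 CPM over the 5 mRNA libraries. CPM are counts scaled to the same total in every library. The genes of the microRNA cluster had 0 counts in all 5 mRNA libraries, which were made from polyadenylated RNA and in which short mature forms are not measured.

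**Figure D2:**
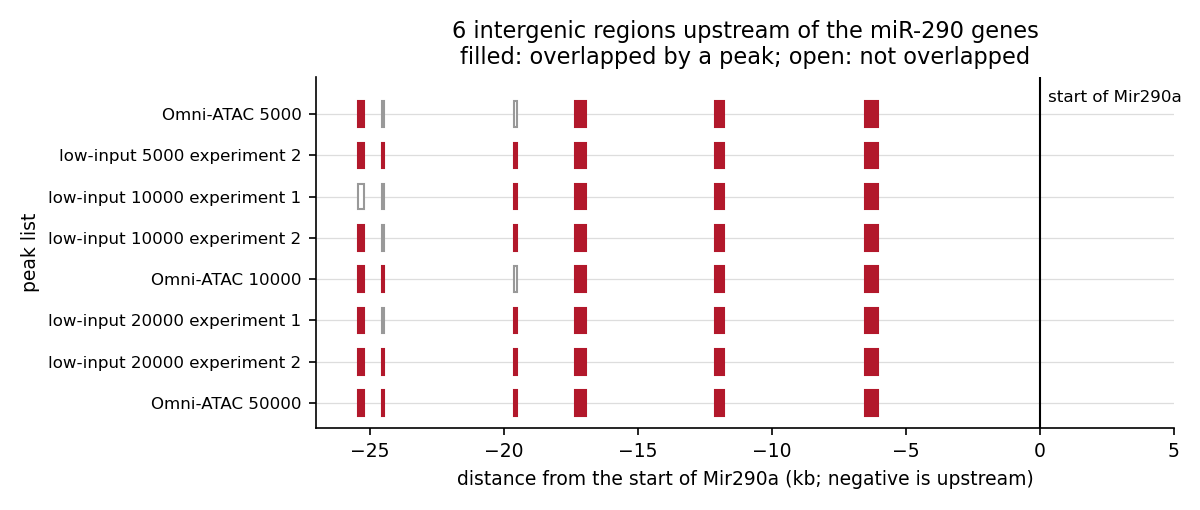
The 6 intergenic regions upstream of the miR-290 genes, drawn to scale by distance from the start of Mir290a (x axis, kb) in each of the 8 peak lists (y axis); filled bars were overlapped by a peak and open bars were not. The 3 regions nearest to Mir290a are filled in all 8 lists, and the region of 103 bp is filled in 4.

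The other 7 clusters among the 10 with most regions had 5 regions each. Next to Mreg and Pecr on chromosome 1, all 5 regions were in each low-input list and 2 in all 8 lists. Next to Dppa5a and Ooep on chromosome 9, genes of a family of RNA-binding proteins expressed in oocytes and early embryos, none of the 5 was in all 8 lists. The Omni-ATAC list from 5000 cells held 0 of them and the low-input list from 5000 cells held 2. Dppa5a had 1469 to 1673 CPM and has near-identical copies elsewhere, so its count is uncertain. Next to Mir8110 on chromosome 8, 4 regions of 5 were in the low-input list from 5000 cells and 1 in that of Omni-ATAC. The nearest gene there with at least 1 CPM was Sall1, a zinc-finger repressor expressed in embryonic stem cells, which was itself nearest to 6 further regions. The remaining clusters were next to B330016D10Rik on chromosome 4, 1810013L24Rik and Usp7 on chromosome 16, Gm14496 and Polr3k on chromosome 2, and Ranbp17 on chromosome 11. They held 1, 0, 2 and 1 regions found in all 8 lists.

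Regions near genes of known function were read through 4 lists of genes. Of 20 pluripotency factors, 16 were nearest to at least 1 intergenic region, with 43 regions in all, 12 of them in all 8 lists. Of 15 genes of signalling pathways that act in these cells, 14 had 27 regions, 9 in all 8 lists. Of 10 chromatin regulators 7 had 17 regions, 3 in all 8 lists. Of 10 genes of later lineages 4 had 1 region each, 2 of them in all 8 lists. Over all 24470 genes 16.8% were nearest to a region, and over the 11512 genes whose mean CPM was 1 or more 19.7%. The lists were chosen with earlier results on these cells known, and they are short, so these counts describe them only.

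Nanog, a homeodomain factor of the pluripotency network, had 2 regions, both in all 8 lists: chr6:122702497-122703201, 705 bp wide and 4.64 kb upstream of its start, and chr6:122669474-122669671, 198 bp wide and 37.9 kb upstream. Pou5f1, which encodes OCT4, had chr17:35503931-35504139 at 2.00 kb upstream in 7 lists and chr17:35490455-35490635 at 15.5 kb upstream in all 8. The list that lacked the nearer one was Omni-ATAC from 5000 cells. Zfp42, which encodes the stem cell marker REX1, had chr8:43320540-43321227, 688 bp wide and 13.9 kb upstream, in all 8 lists. Klf2 had a region of 414 bp at 2.72 kb upstream and one of 684 bp at 15.2 kb downstream of its start, both in all 8 lists. Nanog and Klf4 had no region of the unified list within 1000 bp of their TSS, while Pou5f1, Zfp42 and Klf2 had one.

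Klf4, a zinc-finger factor used in reprogramming, had 3 regions at 17.5, 51.8 and 54.9 kb beyond its start, of which those of 464 and 490 bp were in 7 lists and that of 85 bp in 3. The wider regions were absent only from Omni-ATAC from 5000 cells. Klf5 had 6 regions from 26.2 to 239 kb beyond its start, 2 of them in all 8 lists. Mycn, a MYC family factor, had 5 regions between 1.66 and 122 kb away, and 1, at 14.5 kb, was in all 8. Prdm14, which represses differentiation genes, had a region of 607 bp at 42.1 kb in all 8 lists, and smaller ones in 6 and 5 lists. Tcl1, a cofactor of the AKT kinase, had 3 regions in 3 to 6 lists, none of them recovered from 5000 cells by either protocol. The 4 factors without a nearest region were Sox2, Esrrb, Dppa4 and Otx2.

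**Figure D3:**
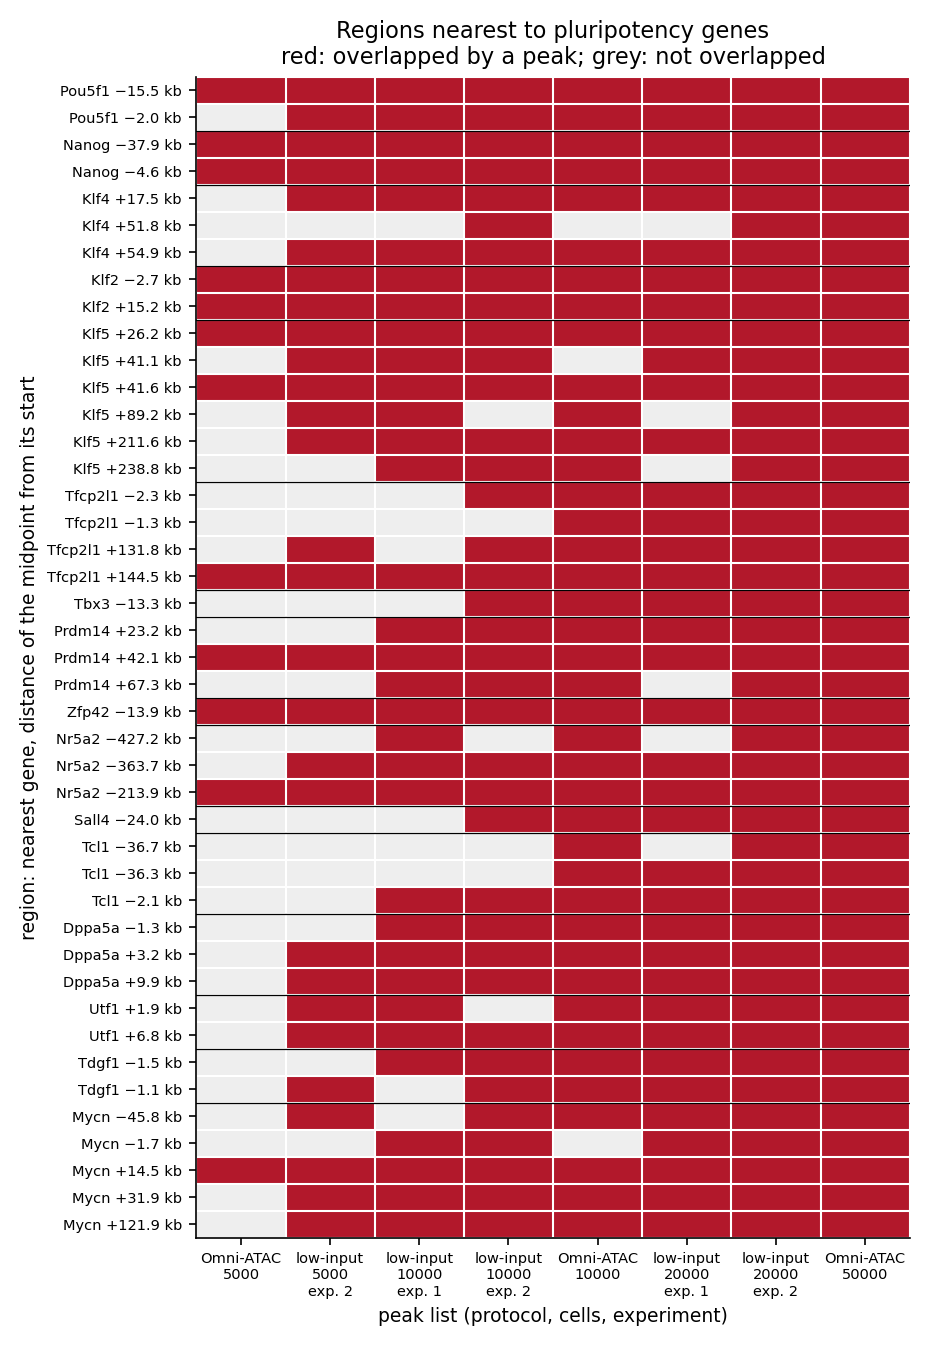
The 43 intergenic regions nearest to 16 pluripotency genes (rows, with the distance of the midpoint from the gene's start in kb, negative for upstream) in the 8 peak lists (columns); red cells were overlapped by a peak. The Omni-ATAC list from 5000 cells holds 12 of the 43, the low-input list from 5000 cells 28, and the lists from 20000 cells of experiment 2 and from 50000 cells all 43.

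Sox2 shows the limit of the nearest gene. No intergenic region had it as nearest gene, but 5 regions lay 85.1 to 146 kb downstream of its start, on the side where a distal control region of Sox2 is known in embryonic stem cells. Their nearest genes were Gm3143 and Gm38509, and Sox2 was the nearest gene with at least 1 CPM. One of them, chr3:34745300-34745547 at 95.4 kb, was in all 8 lists. Those at 108 kb (175 bp) and 111 kb (409 bp) were in 6 and 7 lists, and both were absent from Omni-ATAC from 5000 cells. Sox2 itself had 137 to 179 CPM over the 5 mRNA libraries.

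Among signalling genes, Socs3, the feedback inhibitor of the LIF pathway, had 4 regions and 3 of them were in all 8 lists: 335 bp at 35.0 kb and 448 bp at 5.87 kb downstream of its start, and 311 bp at 6.23 kb upstream. Lefty2, a secreted NODAL antagonist, had 2 regions in all 8 lists at 4.31 and 18.9 kb upstream. Its neighbour Lefty1 had 2 in 7 lists at 10.1 and 15.1 kb upstream, both absent from Omni-ATAC from 5000 cells. Id2 and Id3, inhibitors of helix-loop-helix factors and targets of BMP signalling, had regions in all 8 lists at 12.2 and 3.14 kb. Lifr, the LIF receptor subunit, had 3 regions in 6 or 7 lists, none in all 8. Stat3 had none.

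Among chromatin regulators, Jarid2, a subunit of Polycomb complex PRC2, had 7 regions from 2.13 to 52.4 kb upstream, of which 1, at 25.1 kb, was in all 8 lists. Tet1, an enzyme that oxidises methylcytosine, had 1 region of 410 bp at 13.0 kb upstream in all 8. Mtf2, another PRC2 subunit, had 1 in all 8 at 13.2 kb and 1 in 7. The DNA methyltransferase genes Dnmt3a and Dnmt3b had regions in 5 to 7 lists. Of the lineage genes, Cdx2, a trophoblast factor, had a region of 111 bp in all 8 lists at 7.91 kb beyond its start, although it had at most 0.490 CPM in any library, and Sox1, a neural factor, one of 276 bp at 43.7 kb. T and Eomes had 1 region each, in 6 lists.

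Over the 4 gene lists, recovery of their 91 regions was 31.9% in Omni-ATAC from 5000 cells, 63.7% in the low-input list from 5000 cells, and 100% in Omni-ATAC from 50000 cells and in the low-input list from 20000 cells of experiment 2. The other 5941 intergenic regions gave 30.4%, 62.1%, 99.5% and 99.3%. In the low-input list from 10000 cells of experiment 1 the shares were 80.2% and 64.2%, and in that of experiment 2 they were 87.9% and 88.3%. The low-input list from 20000 cells of experiment 1 and Omni-ATAC from 10000 cells each held 89.0% of the 91 regions, against 83.2% and 80.3% of the others. The median width was 186 bp for the 91 regions and 143 bp for the others.

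In all, 4114 genes (16.8% of 24470) were nearest to at least 1 region: 2932 to 1 region, 764 to 2, 261 to 3 and 157 to 4 or more. After Mir101c with 30, Gm5458 with 10 and Cdh9 and Pcmtd1 with 9 each, 5 genes had 8: Inhbb, which encodes a subunit of activin and inhibin, Ptma, which encodes prothymosin alpha, the ubiquitin ligase gene Trim27, and the non-coding genes 1700049E22Rik and Gm31763. The 9 regions of Cdh9, a cadherin gene, were spread from 117 to 1759 kb in a gene-poor stretch of chromosome 15, and Cdh9 had at most 1.66 CPM. The 8 of Ptma lay within 39.3 kb, 3 of them in all 8 lists, and Ptma had 1249 to 1819 CPM. The 8 of Trim27 lay within 54.6 kb and 2 were in all 8 lists. For 57.1% of the regions the nearest gene averaged 1 CPM or more, and the median distance to the nearest TSS of such a gene was 48.3 kb.

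Genes nearest to more regions had more counts. The share with at least 1 CPM was 44.1 to 46.0% over the 5 mRNA libraries for genes nearest to no region, 51.9 to 54.9% for 1 region, 53.4 to 56.4% for 2, 62.1 to 63.6% for 3 and 67.5 to 72.6% for 4 or more. The medians of log2(CPM + 1) were 0.50 to 0.72 for no region and 2.97 to 3.10 for 4 or more, and those for 1 and 2 regions overlapped. CPM are not divided by transcript length, which was not given here, so they compare counts of these groups of genes and not molecules. All genes with a region were 0.76 above all genes in median log2(CPM + 1) (SD 0.05, n = 5 libraries). Among genes that averaged 1 CPM or more that difference was 0.02. A region of the unified list within 1000 bp of the TSS was found for 32.8% of genes nearest to no region, 34.0% for 1, 37.2% for 2 or 3 and 50.3% for 4 or more.

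**Figure D4:**
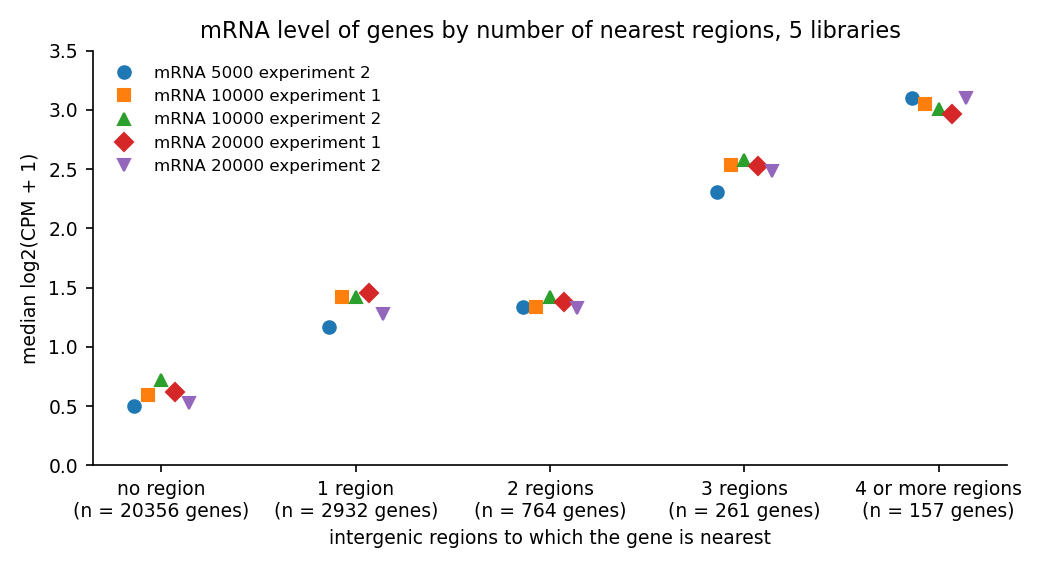
Median log2(CPM + 1) of genes (y axis) by the number of intergenic regions to which they are nearest (x axis), 1 point per mRNA library. All 5 libraries lie between 0.50 and 0.72 for genes with no region and between 2.97 and 3.10 for genes with 4 or more.

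The mRNA libraries allow 2 comparisons with 2 libraries on each side, on the 4 low-input libraries from 10000 and 20000 cells. Their totals of counts were 13727122 to 20426252. Between 20000 and 10000 cells, edgeR's quasi-likelihood test called 0 of 12523 genes (0% of all tested) and 0 of the 2455 nearest genes tested at a Benjamini-Hochberg adjusted p under 0.05. At an unadjusted p under 0.05 there were 101 and 15, and DESeq2 called 0. The edgeR fit had no block for experiment, so differences between experiments counted as spread between libraries. Its common coefficient of variation between libraries was 32.0%, against 17.1% in the fit between experiments. Calls of 0 thus do not show that cell number had no effect. Without a filter on low counts 1 nearest gene, Gm20139, was called lower from 20000 cells, and with the experiment as a block 0 nearest genes were called.

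Between the experiments 1567 of 12523 genes (12.5%) were called, 5.75% higher and 6.76% lower in experiment 2. Each side is a single experiment, and its 2 libraries differ in cell number. The p-values of this fit therefore measure spread within an experiment and not between experiments. Of the 2455 nearest genes tested, 369 (15.0%) were called: 181 higher (7.37%) and 188 lower (7.66%), with a median log2 fold change of −0.0015 against 0.0010 over all genes. Of the 119 tested genes nearest to 4 or more regions, 22 were called (18.5%). Both shares stand above the 12.5% of all genes by a few points, and that difference was not tested. The count was 190 without the library from 10000 cells of experiment 2 and 222 without that from 20000 cells of experiment 2, with 174 and 206 of the 369 genes among them.

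Marker levels differed between the experiments as well. The summed CPM of 8 embryonic stem cell markers were 3445 to 3602 in all 5 libraries. Those of 8 fibroblast markers were 31.4 to 35.1 in experiment 1 and 7.54 to 10.0 in experiment 2, with Col3a1 and Lum at 0 in every library and 1 of the 8 at 1 CPM or more on average. Those of 5 primitive endoderm markers were 10.2 to 13.8 and 1.66 to 2.74, and those of 4 early neural markers 4.59 to 5.62 and 11.1 to 14.4. Trophoblast (5 genes) and mesendoderm markers (4 genes) summed to at most 3.68 CPM. In bulk libraries a change in the share of some cells and a change in RNA per cell cannot be told apart, and the part of these markers in the differences below was not tested.

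Among nearest genes that averaged 10 CPM or more over the 5 libraries and whose experiments did not overlap, the largest rise was that of Id2, which has 2 regions, 1 of them in all 8 lists. It had 21.1 and 19.7 CPM in experiment 1 (10000 and 20000 cells) and 97.0 and 95.0 in experiment 2. The experiments did not overlap, and the log2 fold change was 2.24 (SE 0.15, adjusted p = 2.02e-10, edgeR). The library from 5000 cells of experiment 2, which was outside the test, had 89.7 CPM.

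Top2b, a DNA topoisomerase gene with 1 of 2 regions in all 8 lists, had 5.90 and 5.09 CPM in experiment 1 and 20.8 and 19.0 in experiment 2 (log2 fold change 1.86). Utrn, which encodes utrophin, a relative of dystrophin, had 13.7 and 13.0 against 43.7 and 40.9 CPM (1.66). Eprn had 12.7 and 11.3 against 39.0 and 32.3 CPM (1.57). Apela, which encodes a peptide hormone of the apelin receptor found in pluripotent cells, had 24.4 and 23.6 against 72.0 and 62.0 CPM (1.48). These 4 rises had adjusted p-values from 5.14e-07 to 7.28e-06 in edgeR.

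Under the same limits the largest falls were those of Rec114, a meiotic recombination gene, Emp3, a membrane protein gene, Dennd3, Mettl25 and B4galt6, a lactosylceramide synthase gene. Rec114 had 29.1 and 34.1 CPM in experiment 1 and 11.6 and 5.92 in experiment 2 (log2 fold change −1.86). Emp3, whose 1 region lies 2.24 kb upstream and is in all 8 lists, had 23.4 and 19.1 against 7.09 and 5.87 CPM (−1.71). Dennd3 had 48.2 and 37.9 against 15.3 and 14.3 (−1.54), Mettl25 20.0 and 27.4 against 7.35 and 9.69 (−1.47) and B4galt6 70.8 and 62.0 against 26.6 and 25.3 (−1.36). Their adjusted p-values ran from 1.23e-06 to 7.46e-05 in edgeR. Top2b, Rec114, Emp3 and Mettl25 met the limit of 10 CPM through the experiment where they were high, so the ranking describes genes past that limit; the p-values come from the fit over all 12523 genes, which did not use it. All 10 of these genes kept their direction under each of 8 other settings, and their call under those that kept all libraries. These settings refit the libraries from which the genes were chosen, so they add no independent support.

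In the 4 lists, 9 of the 39 tested genes with a region were called between experiments, 7 higher and 2 lower in experiment 2, with a median log2 fold change of 0.05 over the 39 (12.5% of all genes tested were called). Of the 10 tested genes of these lists without a region, 5 were called, 2 higher and 3 lower: Kdm3a and Pax6, and Dnmt3l, Suz12 and Gata6. Beside Id2, Mycn rose from 21.6 and 25.6 to 64.9 and 60.3 CPM (log2 fold change 1.41, SE 0.16, adjusted p = 1.14e-06, edgeR). Tcl1 rose from 98.4 and 95.4 to 196 and 213 CPM (1.08, SE 0.12, adjusted p = 1.14e-06, edgeR). Utf1, a chromatin factor of pluripotent cells, fell from 595 and 557 to 362 and 415 CPM (−0.57, SE 0.11, adjusted p = 0.0014, edgeR). Nodal, the ligand that LEFTY proteins oppose, fell from 60.6 and 57.7 to 28.8 and 45.5 CPM (−0.67, SE 0.17, adjusted p = 0.0116, edgeR), and lost its call without the library from 10000 cells of experiment 2 (−0.37, adjusted p = 0.275). Socs3, Klf4, Zfp42 and Klf2 were called higher by 0.34 to 0.56 with adjusted p-values from 0.0282 to 0.0497 in edgeR, and each lost the call under 4 of 8 other settings while none changed direction. For Klf4 and Zfp42 these were the fits without each of the 4 libraries in turn, with adjusted p up to 0.223 and 0.171 and log2 fold changes of 0.35 to 0.50 and 0.34 to 0.43. Klf2 lost it in 3 of those fits (up to 0.238) and with cell number as a block, and Socs3 in 3 of them (up to 0.318) and with DESeq2. The experiments were done on different days, so day and any other difference between them cannot be told apart.

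Intergenic regions and expression differed together by chromosome. Chromosome 8 held 369 of the regions, and the lists from 10000 cells recovered 55.0% of them in experiment 1 and 95.4% in experiment 2. That difference of 40.4 points compares with a median of 23.4 over 20 chromosomes. From 20000 cells it was 21.1 points, against a median of 15.9, and chromosomes X (26.8), 14 (25.1) and 16 (21.6) had larger differences. Of the 369 regions 60 (16.3%) were in both lists of experiment 2 and neither of experiment 1, against 8.94% overall. Of the 692 genes of chromosome 8 tested, 210 were called higher and 9 lower in experiment 2, with a median log2 fold change of 0.46. Of its 145 nearest genes 49 were higher and 2 lower, with a median of 0.43. Apela, Zfp42, Klf2 and Sall1 (23.4 and 25.0 CPM in experiment 1, 54.5 and 64.3 in experiment 2; named after its values were seen) lie on this chromosome.

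Chromosome 15 showed the reverse. It held 376 regions, 6.23% of the intergenic regions, 5.61% of the unified list and 3.70% of genes. Its recovery rose least between experiments: by 14.1 points from 10000 cells and by 10.6 from 20000 cells. From 20000 cells it was already 88.6% in experiment 1, the highest of any chromosome, and 99.2% in experiment 2, so little room to rise was left. Of its 506 genes tested 99 were lower and 8 higher in experiment 2, with a median log2 fold change of −0.29. Chromosomes 14 and X also had large differences in recovery, 39.3 and 39.2 points from 10000 cells, beside medians of 0.14 and 0.08 in expression. On the Y chromosome 5 of 6 tested genes were called, all higher in experiment 2, with a median log2 fold change of 8.49. It held only 2 intergenic regions, next to G530011O06Rik. One was in all 4 lists from 10000 and 20000 cells and the other in none of the 5 low-input lists.

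Over the 20 chromosomes, the difference in recovery of intergenic regions from 10000 cells correlated with the median log2 fold change with Pearson's r = 0.783 and Spearman's rho = 0.627. Without chromosomes 8 and 15 these were 0.722 and 0.488. From 20000 cells r was 0.515 and rho 0.435, and without these chromosomes 0.508 and 0.251. The list from 20000 cells of experiment 2 held 98.4 to 100% of the intergenic regions on each of the 20 chromosomes. Differences from 20000 cells therefore depend mainly on the recovery in experiment 1. For the other regions of the unified list r was 0.819 from 10000 cells and 0.899 from 20000 cells, so the pattern was not particular to intergenic regions. These are descriptions over 20 chromosomes that share libraries and days, and chromosomes are not replicates. The number of copies of a chromosome was not measured, and its part was not tested.

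**Figure D5:**
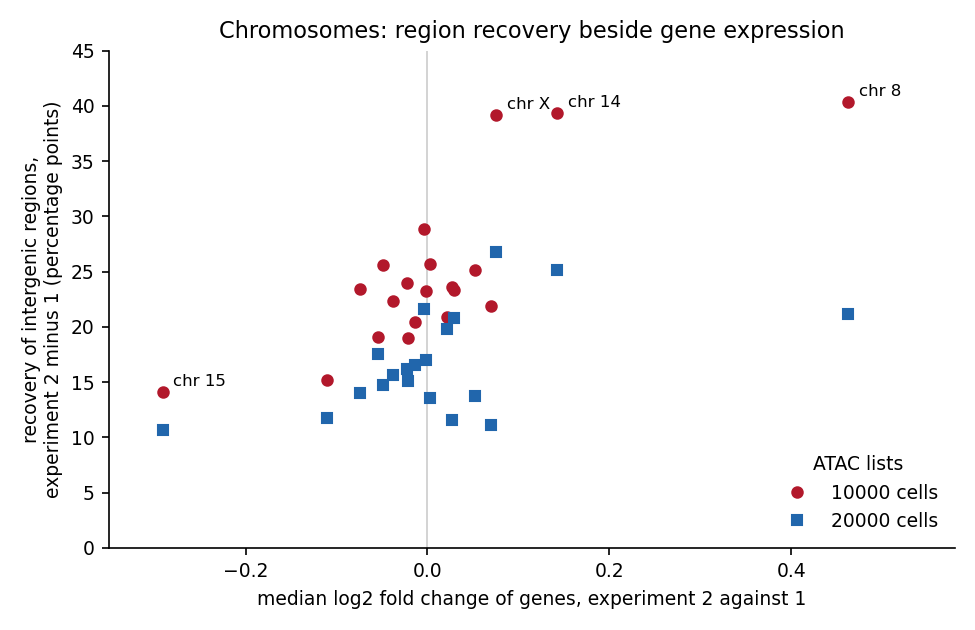
Recovery of intergenic regions in experiment 2 minus experiment 1 (y axis, percentage points, for lists from 10000 and 20000 cells) against the median log2 fold change of all tested genes (x axis), 1 point of each colour per chromosome, for chromosomes 1 to 19 and X; labels stand at the points from 10000 cells. Chromosome 8 lies highest on both axes from 10000 cells, at 40.4 points and 0.46, and chromosome 15 lowest, at 14.1 points and −0.29.

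Regions present in both lists of experiment 2 and neither of experiment 1 were the nearest regions of 519 genes, of which 297 were tested. Of these 57 were called (19.2%), 35 higher (11.8%) and 22 lower (7.41%), with a median log2 fold change of 0.13, beside 12.5% of all genes tested, 5.75% higher and 6.76% lower. Without chromosome 8 there were 45 of 264 (17.0%), 24 higher (9.09%) and 21 lower (7.95%), with a median of 0.09, and all genes without chromosome 8 gave 4.31% higher and 7.08% lower. The 7 regions with the reverse pattern had 6 tested nearest genes, of which 1 was higher and 2 were lower.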

How the data were processed

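ATAC intervals and mRNA counts of mouse E14 embryonic stem cells were used as the authors deposited them. Counts per gene are whole numbers with mm10 coordinates, per the file headers; ATAC lists are intervals without height or score, 1 per library and 1 unified list. The submitters' processing notes name cutadapt, Bowtie2 2.1.0, SAMtools 1.3.1, Picard, bedtools 2.24.0, MACS2 2.1.1, STAR 2.5, featureCounts and Subread 1.5.0-p1; parameters, the treatment of reads with several matches and the making of the unified list are not given in the sources used here. The depth of the ATAC libraries is unknown.

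Groups and experiment numbers came from the sample titles. CPM were computed from deposited counts and library totals. edgeR 4.0.16 in R 4.3.3 (TMM, filterByExpr, quasi-likelihood, Benjamini-Hochberg, threshold 0.05, no block) was run over all genes on 4 libraries, leaving out the unreplicated one from 5000 cells. Same-numbered libraries share a day, per the design text of the series, and the differences between experiments at 10000 and 20000 cells correlated with r = 0.536 over 12523 genes. Recovery was tested by exact permutation over lists. The steps were tested on simulated data. Tables were joined in pandas 2.3.3 and numpy 2.4.6 under Python 3.11.15, intervals came from statsmodels 0.14.6 with scipy 1.17.1, and plots from matplotlib 3.10.9.

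Named are genes of 4 lists with a region, nearest genes of the 10 largest clusters, the genes nearest to most regions, the 5 widest regions in all 8 lists, and the 5 largest rises and falls that averaged 10 CPM or more and had ranges that do not overlap. The regions and lists were chosen with earlier results of these data known. Gene starts were compared with RefSeq tables of GRCm38.p6. No genome sequence was used, so the motif search was run in RefSeq promoter windows only, a step chosen after the data were seen. The alternatives were other overlap, width, distance and cluster limits, RLE size factors, DESeq2 1.42.0, no count filter, blocks, and leaving out each library.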

Additional observations from a re-analysis of the deposited data

How the results depend on the processing

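The alternatives bear on lists without known depth, on 1 cell line and on at most 2 libraries per group, and each test over 8 lists treats the lists as exchangeable although they share cells and days. The number of intergenic regions was 6275 with a TSS distance of 500 bp and 5738 with 2500 bp. The difference from TSS-proximal regions kept its direction under all 14 alternatives run, with an unadjusted exact p of 0.0078 or 0.0156. Without each list in turn p was 0.0156, the smallest that 7 lists allow, and these values were not adjusted over the 4 tests. The order of lists by cell number was 57.1% of pairs with lists limited to their widest peaks. It stayed at 100% of pairs without each library in turn, but p was then 0.0556 to 0.0833, because fewer arrangements remain. The difference from intragenic distal regions was 2.80 points with the widest peaks. Without the 2 clusters with the most regions, an alternative chosen after seeing the data, it was 1.19 points. Without each list in turn it was 0.923 to 1.49 points, with p from 0.0469 to 0.156 in the exact permutation test. Clustered minus single regions gave −0.0875 points with peaks of at least 50 bp, the only reversal, and 1.32 to 2.90 points without each list. Clusters numbered 433 at 5 kb.

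Nearest genes called between experiments numbered 190 to 417 without each library in turn, and 282 with DESeq2, 367 with RLE size factors, 393 without the count filter and 411 with cell number as a block, the last with 364 of the 369 genes. Between cell numbers 1 gene was called without the count filter, 0 without each library in turn, and 0 with the experiment as a replicate block, so the block for the pairing of libraries by day changed no call there; over all genes it called 4. The level of nearest genes above all genes was 1.35 with a pseudocount of 0.1, 0.022 among genes with at least 1 CPM, 1.11 for regions within 100 kb and 0.702 without miRNA genes, the last chosen after seeing the data. The search for motifs inside the regions, and its alternative of their central 200 bp, was not run because it needs a genome sequence. The cause of these differences was not tested.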

Other observations

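Genes with 6 or 7 nearest regions included several regulators, named here after their values were seen. Tle4, a corepressor of Wnt target genes, had 7 regions between 37.2 and 238 kb from its start, 1 of them in all 8 lists, and 31.3 to 37.7 CPM over the 5 mRNA libraries. Irf2bpl had 7 regions within 60.4 kb, 2 of them in all 8 lists, and 31.6 to 34.8 CPM. Med13l, a gene of the Mediator kinase module, had 7 regions from 49.6 to 147 kb away and 16.8 to 22.9 CPM. Lbr, which encodes the lamin B receptor, had 6 regions and 3 of them in all 8 lists, with 48.7 to 74.0 CPM. None of these 4 genes was called between experiments in edgeR. Zfp706, a zinc-finger gene on chromosome 15, had 6 regions from 15.8 to 93.1 kb away. It had 939 and 849 CPM in experiment 1 and 556 and 534 in experiment 2, and 617 in the library from 5000 cells of experiment 2, without overlap (log2 fold change −0.71, SE 0.11, adjusted p = 8.34e-05, edgeR).

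Not every gene with many regions was expressed. Ly86, an immune receptor cofactor, had 6 regions, 2 of them in all 8 lists, and 0 CPM in all 5 libraries. 5730507C01Rik had 5 regions, all of them in all 8 lists, between 127 and 873 kb away, and at most 1.14 CPM. The 4 regions of the cluster near Lrrc4c, at chr2:98662235-98667330 and 2347 kb from its start, were all in the 3 Omni-ATAC lists, and 3 of them were in each of the 5 low-input lists. As for the widest regions, whether this signal is from a single place or from many copies was not tested.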
